A study of Mus musculus with 6 samples.

Results

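Immediate early genes are the genes whose mRNA rises first when a neuron fires or a cell is stimulated. Expression of 10 of them, chosen by name, was read in mouse thalamus: Fos, Fosb, Junb, Egr1, Arc, Npas4, Nr4a1, Ier2, Dusp1 and Btg2. All 10 had a row among the 26554 features counted, and all 10 passed the filter on low counts that left 17240 features for testing. The tissue was the VPL/VPM, the ventral posterior nuclei (lateral and medial parts) that form the relay for touch and pain between brainstem and cortex, of wild-type C57 mice. In the collagenase group (3 libraries) 0.01 U of type IV collagenase in 10 nL had been injected into the right VPL/VPM 14 days earlier. This enzyme breaks down the collagen around vessels, and the small bleed it causes serves as a model of central post-stroke pain. In the saline group (3 libraries) 10 nL of saline had been injected at the same site 14 days earlier, so both groups had passed through surgery and a needle track. Uninjected tissue was not analysed here. The labels do not give the side that was dissected, how many animals went into a library, or the delay between isoflurane anaesthesia and freezing. The p-values below therefore measure the spread between these libraries.

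Calcium entry through synaptic receptors and channels activates kinases that phosphorylate factors such as CREB and the SRF partner ELK1, already bound at the promoters of immediate early genes. Transcription starts within minutes without new protein synthesis, and most of the mRNAs are short-lived, so their level reflects recent stimulation. The products are transcription factors that act on later genes (FOS, FOSB and JUNB as parts of AP-1, EGR1, NPAS4, NR4A1), a protein that acts at synapses (ARC), and proteins that limit the response or growth (DUSP1, BTG2). FOS and EGR1 are widely used as marks of recently active cells.

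The promoters of the members were read for the cAMP response element (CRE), the site that CREB binds, because it is the sequence most often named as the link between activity and these genes. RefSeq's promoter table for GRCm38.p6 held windows for 7 of the 10 members, and the 250 bases before each annotated start were searched on both strands. The CRE core TGACG was found in 7 of 7 windows, against 17.8% of the 32851 windows of the same length in the table (5836). Not all of this is sequence outside transcripts: the Npas4 window lies wholly in GENCODE exon (250 of 250 bases), and the windows of Dusp1 and Fosb hold 47 and 6 exon bases. The full palindrome TGACGTCA, which contains the core on both strands, was found for Btg2 and Dusp1, against 1.55% of all windows. The EGR site GCGGGGGCG was found for Fosb and Nr4a1, against 2.57% of all windows. The AP-1 site TGANTCA was found in 0 of 7 windows (6.75% of all), and the CArG box, the site of SRF, in 0 of 7 (1.47% of all). These are matches of letters in a window of this length. The windows of Fos, Nr4a1 and Btg2 are printed to show cores on the printed strand, cores on the other strand and a full palindrome, with the CRE core or palindrome in capitals (CGTCA is TGACG read on the other strand).
Fos, chr12:85473640-85473889, plus strand: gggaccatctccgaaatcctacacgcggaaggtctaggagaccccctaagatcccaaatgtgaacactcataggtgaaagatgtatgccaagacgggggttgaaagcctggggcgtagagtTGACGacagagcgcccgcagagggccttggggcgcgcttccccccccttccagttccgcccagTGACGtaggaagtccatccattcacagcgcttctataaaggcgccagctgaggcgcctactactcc
Nr4a1, chr15:101266596-101266845, plus strand: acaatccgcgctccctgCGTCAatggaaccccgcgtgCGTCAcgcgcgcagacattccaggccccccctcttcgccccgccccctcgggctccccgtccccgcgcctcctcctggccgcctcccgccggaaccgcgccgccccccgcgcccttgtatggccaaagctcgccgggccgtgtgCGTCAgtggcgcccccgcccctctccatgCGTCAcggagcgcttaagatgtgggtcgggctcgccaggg
Btg2, chr1:134079156-134079405, minus strand: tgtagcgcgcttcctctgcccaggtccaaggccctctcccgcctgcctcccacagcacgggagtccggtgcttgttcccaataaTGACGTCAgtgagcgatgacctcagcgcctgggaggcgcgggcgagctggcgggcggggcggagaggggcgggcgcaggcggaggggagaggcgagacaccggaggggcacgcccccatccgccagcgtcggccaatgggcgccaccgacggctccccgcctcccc
In Fos the cores began 129 and 66 bases before the start, and the window ends just before the first base of the gene in GENCODE M21. In Nr4a1 there were 4 cores, beginning 233, 213, 69 and 40 bases before the start, and the window lies between exons inside the gene's outer bounds. In Btg2 the palindrome began 166 bases before the start.

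Total counts ran from 36463551 to 44815451 in collagenase libraries and from 33603076 to 44363142 in saline libraries. Levels are given as CPM, the count divided by library depth on a common scale, with TMM, a factor that evens out differences in library composition (1.00 to 1.06 in collagenase libraries, 0.898 to 1.02 in saline libraries), applied to the depth. Markers of the labelled tissue were read, without another tissue to compare them with. The 10 listed for thalamic relay neurons, which include Slc17a6 and Tcf7l2, summed to 3268, 3971 and 3850 CPM in collagenase libraries. In saline libraries they summed to 4515, 3573 and 5001 CPM. Cplx1 was the largest part of this sum in every library, from 921 CPM in collagenase replicate 1 to 1435 CPM in saline replicate 3. Saline replicate 3 stood apart from the other libraries. The 8 striatal markers summed to 891 CPM there, against 292, 134 and 126 CPM in collagenase libraries and 140 and 149 CPM in saline replicates 1 and 2, and 8 of 8 were highest in it. The 12 markers of cortex and hippocampus summed to 551, 549 and 522 CPM in collagenase libraries and to 886, 918 and 744 CPM in saline libraries, and the 6 of habenula to 123, 58.2 and 191 CPM and to 16.7, 18.6 and 145 CPM. The choroid plexus sum was 1824, 1983 and 37.1 CPM in collagenase libraries and 938, 2596 and 42.2 CPM in saline libraries. Because of saline replicate 3, each member's result is given with and without it.

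At 14 days 0 of the 10 immediate early genes passed at a threshold of 0.05 (edgeR quasi-likelihood test, with p adjusted after Benjamini and Hochberg). Among all tested features 2.41% passed: 2.12% were higher after collagenase and 0.29% lower. At an unadjusted p under 0.05 the edgeR test found 2 members, Arc and Ier2, against 12% of all tested features, and DESeq2 found 3 members at that level, against 10.1% of all features it tested, and 0 after adjustment, against 4%. The fitted difference was negative for 8 members and positive for Fos and Btg2, with a median log2 fold change (collagenase over saline) of -0.33, against -0.02 over all tested features. Without saline replicate 3 it was negative for 4 members and the median was 0.05, against 0.00 over all features. The 95% interval of the difference included 0 for 8 members, also without saline replicate 3. No overlap between the groups was found for 2 members, Arc and Ier2, both lower after collagenase, against 7.5% of all tested features in that direction. The counts behind these levels ran from 63 (Fosb in collagenase replicate 2) to 3653 (Egr1 in saline replicate 3). Counting error alone at each member's lowest count would give a coefficient of variation of 2.46% for Egr1 to 12.6% for Fosb.

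**Figure D1:**
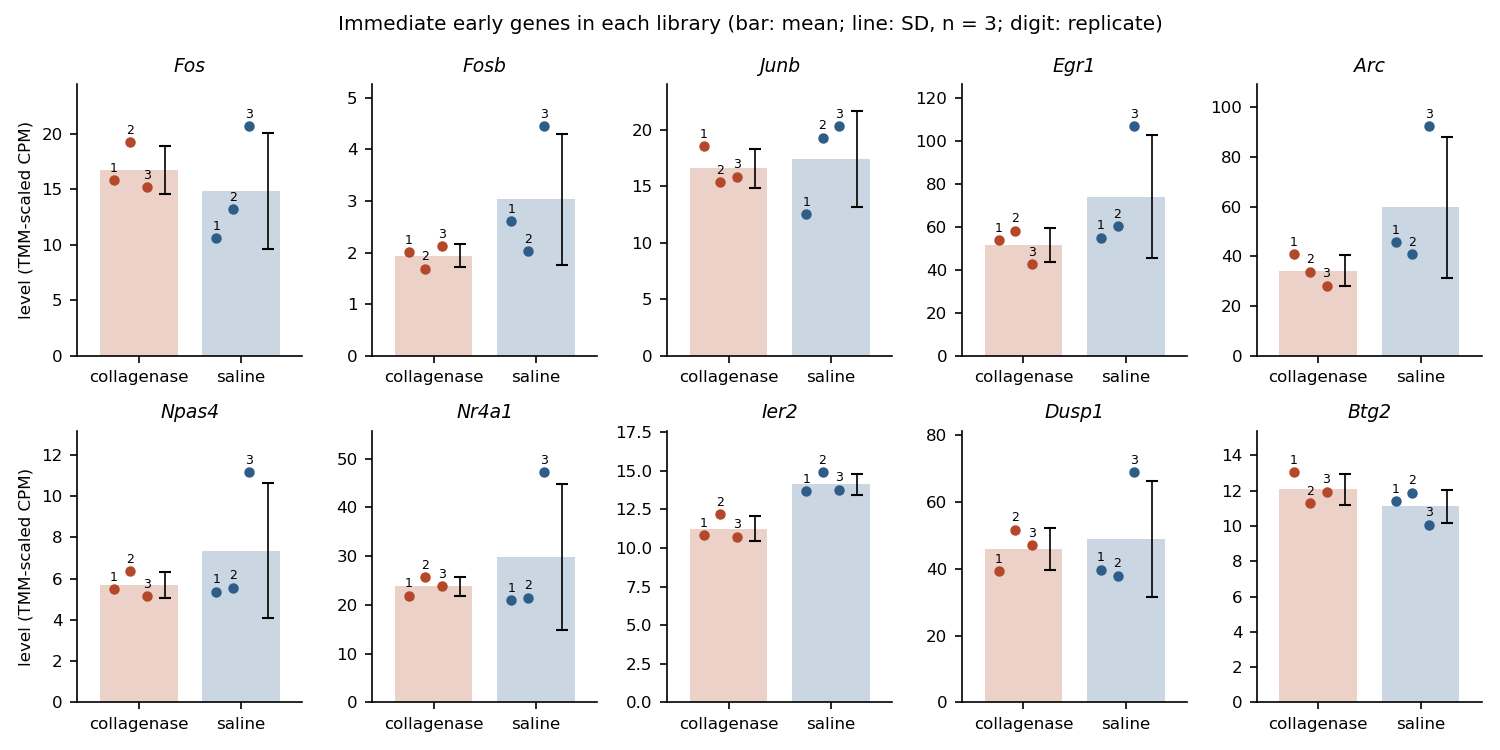
Level of each immediate early gene in each library, in TMM-scaled CPM with a linear axis from 0, with collagenase libraries left and saline libraries right. Points are libraries with their replicate number, bars are means and lines are the SD (n = 3 per group); saline replicate 3 is the highest point for 8 of the 10 genes.

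The AP-1 subunits did not pass the test. Fos (ENSMUSG00000021250, chromosome 12, 85473890 to 85477273, plus strand, GRCm38) encodes the subunit most used as an activity mark. It measured 15.8, 19.2 and 15.2 CPM in collagenase libraries and 10.6, 13.2 and 20.7 CPM in saline libraries. The groups overlapped, since the saline libraries held both the lowest and the highest value. Fos averaged 16.7 ± 2.19 CPM after collagenase and 14.8 ± 5.24 CPM after saline (SD, n = 3 each), and the log2 fold change between them was 0.18. Its standard error (SE) was 0.24, its 95% interval -0.37 to 0.72 and its edgeR adjusted p 0.852. Without saline replicate 3 the collagenase values all lay above the saline values, and the log2 fold change was 0.49 with an interval of 0.13 to 0.85. That comparison had an unadjusted edgeR p of 0.0141, and 21.1% of all features had a p under 0.05 in the same fit. Its adjusted p was 0.121, so it did not pass either. The share of all features without overlap in that comparison was not counted.

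Fosb (ENSMUSG00000003545, chromosome 7, 19302696 to 19310051, minus strand) encodes the Fos relative whose truncated form, deltaFosB, builds up under repeated stimulation. It was the least abundant member, with 2.02, 1.69 and 2.12 CPM in collagenase libraries and 2.61, 2.04 and 4.46 CPM in saline libraries. The value in saline replicate 2 lay within the collagenase range, and that in saline replicate 3 was the highest. The log2 fold change was -0.64 (SE 0.32, interval -1.36 to 0.09, edgeR adjusted p = 0.483), and -0.26 without saline replicate 3 (adjusted p = 0.624). The counts are per gene and do not tell the full-length form from the truncated one.

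Junb (ENSMUSG00000052837, chromosome 8, 84974484 to 84978718, minus strand) encodes a Jun subunit that pairs with the FOS proteins. It measured 18.6, 15.4 and 15.9 CPM in collagenase libraries and 12.6, 19.3 and 20.3 CPM in saline libraries, and the collagenase values lay between the saline extremes. For Junb the log2 fold change was -0.07 (SE 0.19, interval -0.50 to 0.37, edgeR adjusted p = 0.942) and 0.06 without saline replicate 3. Exons of Junb share 173 bases with Prdx2 on the opposite strand, and reads from that stretch cannot be told apart without strand, which is not given in the sources used here.

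Egr1, Npas4 and Nr4a1, the other transcription factors, did not pass the test, and each had saline replicate 3 above every other library. Egr1 (ENSMUSG00000038418, chromosome 18, 34859823 to 34864984, plus strand), a zinc finger factor, measured 53.9, 58.4 and 42.7 CPM in collagenase libraries and 55.0, 60.5 and 107.1 CPM in saline libraries. The remaining 5 values lay close together, with collagenase replicate 3 the lowest. The means were 51.7 ± 8.08 CPM after collagenase and 74.2 ± 28.6 CPM after saline, with a log2 fold change of -0.52 (SE 0.26, interval -1.11 to 0.07, edgeR adjusted p = 0.483). It was -0.16 without saline replicate 3, with an interval of -0.48 to 0.15.

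Npas4 (ENSMUSG00000045903, chromosome 19, 4984355 to 4990316, minus strand) encodes a factor that is induced by calcium entry in neurons with high selectivity and acts on inhibitory synapses. It measured 5.48, 6.37 and 5.15 CPM in collagenase libraries and 5.36, 5.55 and 11.1 CPM in saline libraries. Apart from saline replicate 3 the values of the groups interleaved. For Npas4 the log2 fold change was -0.37 (SE 0.29, interval -1.04 to 0.29, edgeR adjusted p = 0.707), and 0.05 without saline replicate 3 (interval -0.36 to 0.47).

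Nr4a1 (ENSMUSG00000023034, chromosome 15, 101254269 to 101274795, plus strand) encodes an orphan nuclear receptor that is induced in neurons and also in stimulated immune cells. It measured 21.9, 25.6 and 23.9 CPM in collagenase libraries and 20.9, 21.5 and 47.2 CPM in saline libraries. The collagenase values lay above saline replicates 1 and 2 and far below saline replicate 3. The log2 fold change was -0.33 (SE 0.31, interval -1.05 to 0.40, edgeR adjusted p = 0.772). Without saline replicate 3 it was 0.16 (interval -0.08 to 0.41, adjusted p = 0.432).

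Arc, the effector at synapses, had the largest fitted difference of the members. Arc (ENSMUSG00000022602, chromosome 15, 74669083 to 74672570, minus strand) encodes a protein that drives the removal of AMPA receptors from the synapse. It measured 40.8, 33.9 and 28.3 CPM in collagenase libraries and 45.8, 41.0 and 92.5 CPM in saline libraries. The groups did not overlap, but 40.8 CPM in collagenase replicate 1 and 41.0 CPM in saline replicate 2 almost touched, and they did overlap in the deposited FPKM values and in CPM scaled by library totals alone. The means were 34.3 ± 6.27 CPM after collagenase and 59.8 ± 28.4 CPM after saline. This is a log2 fold change of -0.80 (SE 0.32, interval -1.55 to -0.05), with an edgeR p of 0.0395 before adjustment and 0.373 after it. Without saline replicate 3 it was -0.34 (interval -0.69 to 0.01, adjusted p = 0.250). The lowest adjusted p of any member over 13 alternative settings was also that of Arc, 0.0950 with DESeq2.

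Ier2, Btg2 and Dusp1 differed in how they followed the other members. Ier2 (ENSMUSG00000053560, chromosome 8, 84661331 to 84662852, minus strand), a small nuclear protein induced by many stimuli, measured 10.8, 12.2 and 10.7 CPM in collagenase libraries and 13.7, 14.9 and 13.8 CPM in saline libraries. The groups did not overlap here or in FPKM, and saline replicate 3 lay between the other saline values. In CPM scaled by library totals alone the groups overlapped. The means were 11.2 ± 0.807 CPM after collagenase and 14.1 ± 0.673 CPM after saline, the smallest relative spread among saline libraries of any member (4.77%). The difference was -0.33 on the log2 scale (SE 0.12, interval -0.61 to -0.04), with an edgeR p of 0.0290 before adjustment and 0.328 after it. Without saline replicate 3 it was -0.35 (adjusted p = 0.172).

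Dusp1 (ENSMUSG00000024190, chromosome 17, 26505590 to 26562128, minus strand) encodes a phosphatase that switches MAP kinases off. It measured 39.3, 51.7 and 47.2 CPM in collagenase libraries and 39.8, 38.0 and 68.9 CPM in saline libraries, so the groups overlapped. Its log2 fold change was -0.09 (SE 0.23, interval -0.62 to 0.45, edgeR adjusted p = 0.937) and 0.24 without saline replicate 3 (interval -0.04 to 0.53). Its exons share 11 bases with Ergic1 on the opposite strand.

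Btg2 (ENSMUSG00000020423, chromosome 1, 134075170 to 134079120, minus strand) encodes an antiproliferative protein that promotes mRNA decay. It measured 13.0, 11.3 and 11.9 CPM in collagenase libraries and 11.4, 11.9 and 10.1 CPM in saline libraries. The groups overlapped and, unlike most members, its lowest value was in saline replicate 3. Its log2 fold change was 0.12 (SE 0.13, interval -0.19 to 0.43, edgeR adjusted p = 0.815), and 0.05 without saline replicate 3.

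**Figure D2:**
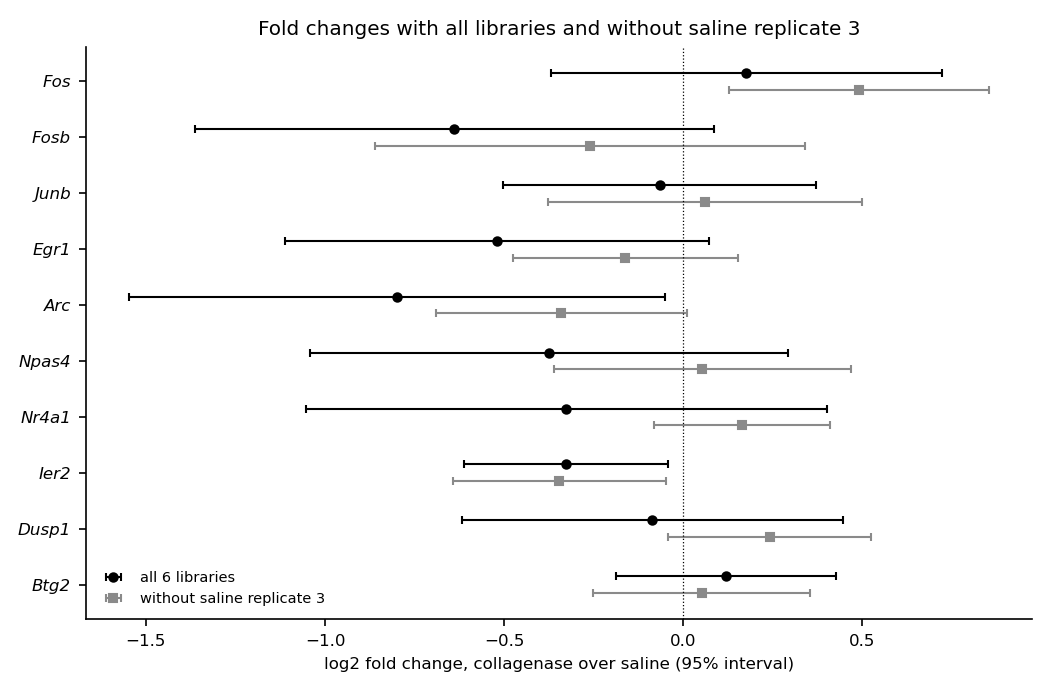
Fitted log2 fold change of each immediate early gene, collagenase over saline, with its 95% interval, from all 6 libraries and without saline replicate 3. The interval covers 0 for 8 of the 10 genes in each fit; those of Arc and Ier2 lie below 0 with all libraries, and without saline replicate 3 that of Fos lies above 0 and that of Ier2 below it.

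The spread of the members lay mainly in saline replicate 3. It was the highest library for 8 of 10 members (80%), against 4150 of 17240 tested features (24.1%), and its level was over 1.5 times the mean of saline replicates 1 and 2 for 7 members, against 10.0% of all features. This ratio was 2.23 for Nr4a1, 2.13 for Arc, 2.04 for Npas4, 1.92 for Fosb, 1.85 for Egr1, 1.77 for Dusp1 and 1.74 for Fos. It was 1.28 for Junb, 0.965 for Ier2 and 0.865 for Btg2. With each member centred on its mean log2 CPM, the members averaged -0.10, -0.06 and -0.19 in collagenase libraries and -0.15, -0.07 and 0.58 in saline libraries. Saline replicates 1 and 2 thus lay inside the range of the collagenase libraries on this average. The median SD of log2 CPM over the members was 0.16 among collagenase libraries and 0.51 among saline libraries, against 0.15 and 0.21 over all tested features.

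In the same library, besides the striatal sum given above, Adora2a, a receptor of striatal neurons, stood at 50.1 CPM, against 16.1, 3.98 and 3.63 CPM in collagenase libraries and 4.59 and 4.57 CPM in the other saline libraries. Penk, an opioid precursor of striatal neurons that is itself on the list of later activity genes, stood at 215 CPM there, against 57.3, 22.8 and 21.4 CPM in collagenase libraries and 19.1 and 27.3 CPM in the other saline libraries. Tac1, another of the striatal markers, is on that list as well. Of the striatal markers 0 of 8 were at 0 in any library. The pan-neuronal sum was 5732, 6517 and 6913 CPM in collagenase libraries and 7426, 6724 and 8297 CPM in saline libraries. Microglial markers summed to 944, 780 and 691 CPM after collagenase and to 317, 329 and 360 CPM after saline. Of these markers 7 of 9 were called higher, against 2.12% of all tested features. In bulk tissue fewer cells of a type and less RNA per cell cannot be told apart. The part of these markers in the members' levels was not tested.

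**Figure D3:**
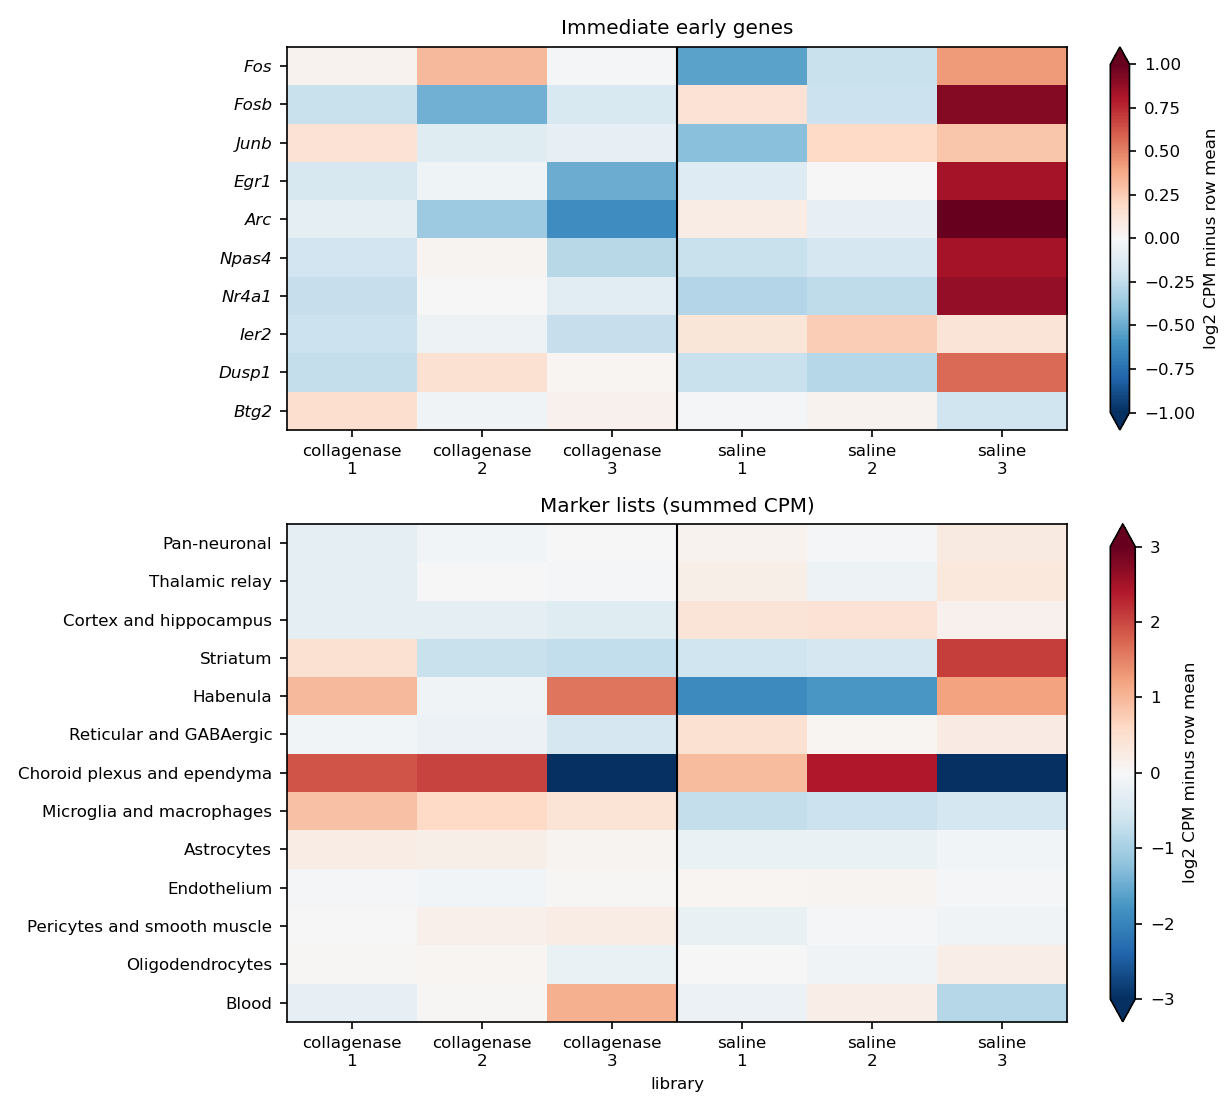
Members (top) and summed marker lists (bottom) by library, collagenase left and saline right, coloured by log2 CPM minus the mean of the row; the scale runs to 1 above and to 3 below. Saline replicate 3 is the darkest red column for most immediate early genes and for the striatal list.

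Levels can be compared between genes only per length, so the order of the members was read from the deposited FPKM values, which divide fragments by transcript length and by library depth. Over the 6 libraries Dusp1 was the most abundant (22.4 ± 4.32 FPKM, SD), followed by Arc (14.3 ± 5.998), Egr1 (13.1 ± 3.82), Nr4a1 (10.0 ± 3.04), Junb (8.89 ± 1.49), Ier2 (7.87 ± 0.926) and Fos (7.06 ± 1.52). Btg2 (4.03 ± 0.550 FPKM), Npas4 (1.85 ± 0.529) and Fosb (0.608 ± 0.206) were the lowest. Between neighbours, only the ranges of Btg2 and Npas4 and of Npas4 and Fosb lay apart. Dusp1 exceeded Arc, Egr1 exceeded Nr4a1 and Fos exceeded Btg2 in 6 of 6 libraries, although their ranges overlapped. Arc exceeded Egr1 in 3 of 6 libraries, Nr4a1 exceeded Junb in 4, Junb exceeded Ier2 in 5 and Ier2 exceeded Fos in 2. The order of these neighbours was thus not the same in every library.

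The likeness of patterns was measured as the root mean square difference between centred log2 CPM values over the 6 libraries, with no test. Within the family the closest pair was Npas4 and Nr4a1, which differed by 0.09, followed by Egr1 and Npas4 with 0.12 and Nr4a1 and Dusp1 with 0.15. Arc and Btg2 were farthest apart with 0.62. The member nearest to Fos was Dusp1 with 0.195, and 292 of 12864 eligible genes outside the family were closer to Fos than that. Junb (0.267), Nr4a1 (0.272) and Npas4 (0.279) came next, and Arc (0.527) was farthest. Eligible genes had a gene symbol and enough counts, and predicted genes were left out. The 10 eligible genes outside the family with the pattern nearest to Fos were Cyp2s1, Sept1, Hist1h2bg, Bak1, Sv2c, Med12, Bcl9l, Polm, BC024063 and Ccdc88c, with values from 0.0587 to 0.117. Cyp2s1, a cytochrome P450, was the nearest, with 6.91, 8.36 and 6.73 CPM in collagenase libraries and 4.64, 6.14 and 8.39 CPM in saline libraries.

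The wider list of 50 other primary response genes, all tested, held 1 gene that rose and 0 that fell, with a median log2 fold change of 0.09. The share called higher over all features was 2.12%, so 1 of 50 lies near it. At an unadjusted edgeR p under 0.05 there were 10 genes of 50, against 12% of all features. DESeq2 called 6 after adjustment, against 4% of all features: Atf3, Cebpd and Sgk1 higher, and Egr4, Homer1 and Nr4a3 lower. Without saline replicate 3 edgeR called 4 (Atf3, Nr4a2 and Per1 higher, Nr4a3 lower), against 5.21% of all features. It called 2 without saline replicate 2 (Atf3 and Cebpd higher, 1.98% of all) and 2 without collagenase replicate 1 (Atf3 higher and Egr3 lower, 1.19% of all). Atf3, a stress-induced factor and a mark of injured neurons, rose to 9.01, 6.48 and 3.76 CPM in collagenase libraries, against 0.968, 0.785 and 0.704 CPM in saline libraries. The rise was 2.96 on the log2 scale (SE 0.35, edgeR adjusted p = 0.00591), and it passed under all 13 alternatives, with adjusted p up to 0.0447. On the log2(FPKM + 1) scale, which understates the change of low genes, limma gave 1.55. The next genes by p did not pass with edgeR on all libraries. Cebpd, a factor of the acute-phase response, measured 12.3, 11.2 and 13.3 CPM after collagenase and 4.23, 7.88 and 5.98 CPM after saline (log2 fold change 1.03, edgeR adjusted p = 0.0609). It passed under 3 of 13 alternatives, namely DESeq2 (adjusted p = 0.00104), no filter on low counts (0.0413) and without saline replicate 2 (0.0266). Homer1, whose short form is induced by activity and loosens synaptic scaffolds, measured 34.2, 29.0 and 23.7 CPM after collagenase and 45.9, 40.1 and 49.9 CPM after saline (log2 fold change -0.64, edgeR adjusted p = 0.0822), and passed with DESeq2 alone (adjusted p = 0.00842). The Homer1 counts are per gene and do not tell the short form from other forms. The groups did not overlap for Cebpd or Homer1, but both were named for their small p. In the whole list 8 of 50 genes were higher without overlap and 5 were lower without overlap. Over all tested features the shares were 10.1% and 7.5%.

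Relatives of the members within that list showed different orders of libraries. Egr4, a relative of Egr1, measured 2.27, 1.13 and 1.40 CPM after collagenase and 3.42, 4.30 and 12.4 CPM after saline, a log2 fold change of -2.06 (SE 0.53, edgeR adjusted p = 0.124), and -1.26 without saline replicate 3 (adjusted p = 0.0673). With DESeq2 Egr4 passed (adjusted p = 0.000785). The remaining relatives named here were chosen after their values were seen. Egr3 measured 11.5, 2.93 and 2.90 CPM after collagenase and 12.4, 19.2 and 22.0 CPM after saline, without overlap, and did not pass (log2 fold change -1.62, edgeR adjusted p = 0.332). Without collagenase replicate 1, the high library of that group, it was -2.61 and passed (adjusted p = 0.00825). Nr4a3, a paralog of Nr4a1, measured 8.71, 6.42 and 8.52 CPM after collagenase and 23.4, 30.2 and 7.92 CPM after saline. Here saline replicate 3 lay with the collagenase libraries, opposite to its place for Nr4a1. Its log2 fold change was -1.38 (edgeR adjusted p = 0.264) with all libraries and -1.76 without saline replicate 3 (adjusted p = 0.00367). Nr4a2, the other paralog and a habenular gene as well, measured 15.3, 8.73 and 20.3 CPM after collagenase and 4.46, 5.26 and 15.7 CPM after saline, with a log2 fold change of 0.81 (adjusted p = 0.658) and of 1.602 without saline replicate 3 (adjusted p = 0.0496). The order of Nr4a2 over the 6 libraries was that of the habenular sum, and Nr4a3 was high in the saline libraries where Neurod6, a marker of cortical and hippocampal neurons, stood at 23.0 and 39.8 CPM, against 0.176 CPM in saline replicate 3 and 3.65, 0.537 and 0.570 CPM in collagenase libraries. The part of these regions in the 2 genes was not tested.

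Of 30 genes of the late response, which activity switches on through the early factors, 29 were in the files and 27 were tested. The late list held 0 genes that passed the edgeR test, 8 of 27 at an unadjusted p under 0.05 (12% of all features) and 4 by DESeq2 after adjustment (Npy, Rasgrp1, Rgs4 and Vgf, all lower; 4% of all features). The median log2 fold change was -0.22, and -0.05 without saline replicate 3. There were 3 edgeR calls without saline replicate 2 (Npy, Rasgrp1 and Rgs4, against 1.98% of all features) and 3 without saline replicate 3 (Nptx1, Ptgs2 and Vgf, against 5.21%), all lower. Vgf, a neuropeptide precursor, measured 128, 143 and 145 CPM after collagenase and 177, 200.3 and 189 CPM after saline, a log2 fold change of -0.44 (SE 0.10, edgeR adjusted p = 0.0659). Rgs4, which shortens G protein signals, measured 334, 372 and 314 CPM after collagenase and 621, 432 and 551 CPM after saline (log2 fold change -0.65, adjusted p = 0.0698). Rasgrp1, an activator of Ras, and Npy, an inhibitory peptide, had log2 fold changes of -0.66 (adjusted p = 0.140) and -0.99 (adjusted p = 0.152). For these 4 genes the groups did not overlap, but they were named for having the smallest p of the list. In the whole list 3 of 27 genes were higher without overlap and 5 were lower without overlap. Over all tested features the shares were 10.1% and 7.5%. The 7 markers of reticular and other GABAergic neurons, where Npy is also made, summed to 790, 749 and 593 CPM after collagenase and to 1162, 875 and 989 CPM after saline, also without overlap. Of the 7, 1 was called lower (Dlx1, edgeR adjusted p = 0.0328), against 0.29% of all features, and 0 were at 0 in any library. Sst is both among these markers and on the late list, and Nptx1 of the late list is also a listed marker of cortex and hippocampus. The part of the GABAergic markers in the late genes was not tested. Bdnf, a growth factor and a classic late gene that is named here with its values known, measured 12.7, 10.6 and 12.1 CPM after collagenase and 14.9, 18.6 and 8.88 CPM after saline, with overlap.

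The upstream list held 37 genes of the route from calcium to these promoters and of dimer partners of the factors, all tested. Of these, 0 rose and 2 fell. Over all tested features 2.12% were called higher and 0.29% lower. The median log2 fold change of the 37 genes was -0.10. At an unadjusted edgeR p under 0.05 there were 9 genes of 37, against 12% of all features, and DESeq2 called 2 higher and 4 lower after adjustment, against 4% of all features. EdgeR called 8 genes without saline replicate 3, 2 higher and 6 lower, against 5.21% of all features. Camk2a, the alpha subunit of calcium/calmodulin kinase II, fell to 566 ± 11.2 CPM after collagenase, against 809.7 ± 29.8 CPM after saline (SD, n = 3 each), with 576, 554 and 569 CPM and with 776, 821 and 832 CPM in the single libraries. The log2 fold change of Camk2a was -0.52 (SE 0.10, edgeR adjusted p = 0.0334). Ppp3ca, the catalytic subunit of calcineurin, fell to 353 ± 28.5 CPM after collagenase, against 504 ± 17.0 CPM after saline, with a log2 fold change of -0.51 (SE 0.10, adjusted p = 0.0440). Each call was lost under 9 of 13 alternatives, with the direction kept, among them 5 of the 6 that leave out a library. Both genes are abundant in forebrain neurons, and the cortex and hippocampus sum was also lower in all 3 collagenase libraries. Its largest member was Slc17a7, with 238, 264 and 245 CPM after collagenase and 463, 481 and 383 CPM after saline. The members of that sum differed in saline replicate 3. Neurod6, Neurod2, Emx1 and Nptx1 were lowest of all libraries there, and Cux2, Wfs1 and Prox1 were highest. The part of these regions in Camk2a and Ppp3ca was not tested. Elk3, a partner of SRF, measured 15.3, 14.99 and 12.8 CPM after collagenase and 9.03, 9.19 and 10.7 CPM after saline (log2 fold change 0.58, adjusted p = 0.0913). Rps6ka1, a kinase of the ERK pathway, measured 34.5, 30.4 and 35.4 CPM after collagenase and 24.8, 20.4 and 26.6 CPM after saline (log2 fold change 0.48, adjusted p = 0.126).

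**Figure D4:**
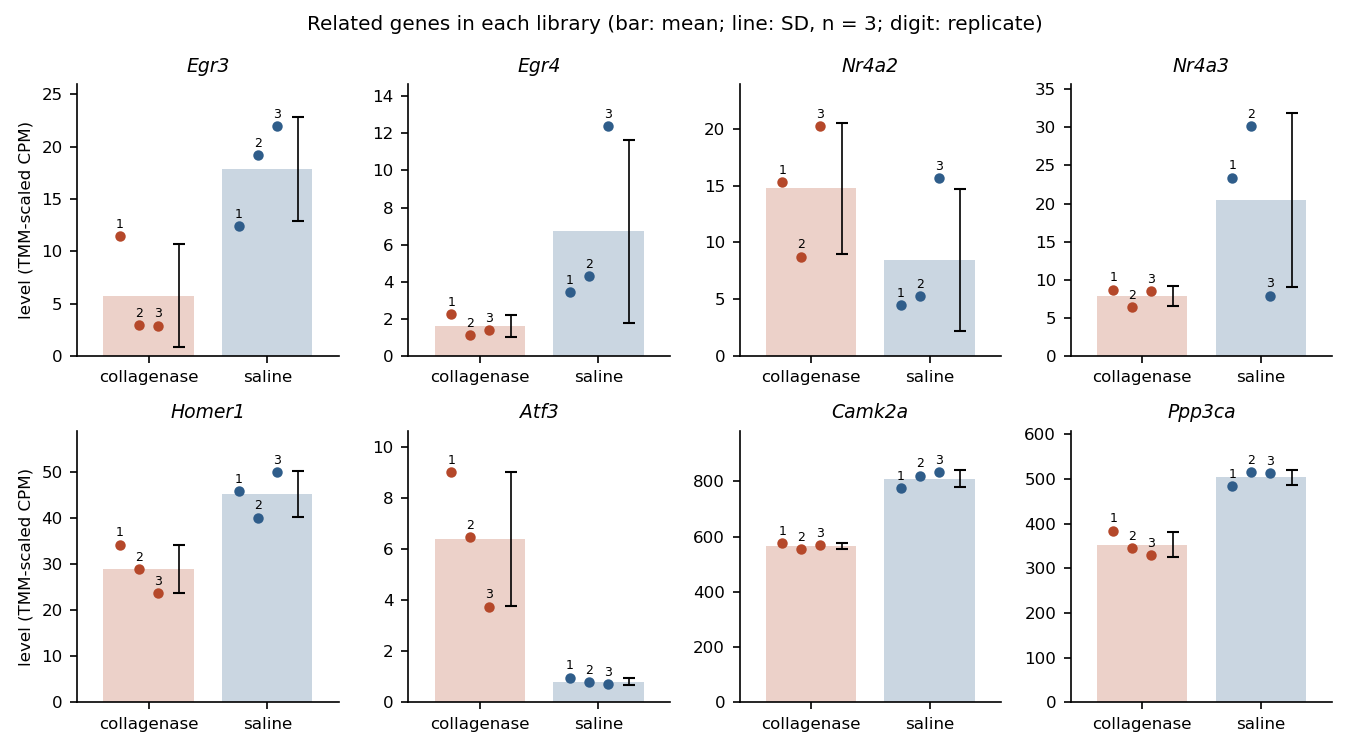
Level of 8 genes related to the immediate early genes in each library, in TMM-scaled CPM with a linear axis from 0, collagenase left and saline right. Points are libraries with their replicate number, bars are means and lines are the SD (n = 3 per group); Atf3 is higher and Camk2a and Ppp3ca lower after collagenase, and saline replicate 3 is high for Egr4 and Nr4a2 but low for Nr4a3.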

How the data were processed

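Per the labels' protocols, libraries were made from poly(A) RNA with random hexamer priming and PCR. Named in the submitters' processing notes are HISAT2 2.2.1, StringTie, FastQC, DESeq2 and GRCm38, without their roles. For strand and annotation release, the setting is not given in the sources used here. For each feature and library the authors deposited a count and an FPKM value, per the file headers. The counts were whole numbers with totals that differed between libraries, so they were treated as raw counts. Between libraries, the ratio of a member's count per total to its FPKM varied by 1.03 to 1.06 times. Groups came from sample titles. Lines of spilled annotation text (10 to 30 per library) were skipped, and symbols were matched by Ensembl identifier.

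Counts were tested with edgeR 4.0.16 (R 4.3.3): filterByExpr, TMM and the two-sided robust quasi-likelihood test, with p adjusted after Benjamini and Hochberg over 17240 features. Every adjusted p is from this fit unless another tool is named. Log2 CPM used a prior count of 2. An exact permutation test of 3 against 3 libraries cannot go below 0.1, so none was run. Alternatives used DESeq2 1.42.0, limma 3.58.1 on log2(FPKM + 0.1) and log2(FPKM + 1), other scalings, no filter, a replicate block and each library left out. The steps were tested on simulated counts in which no library stood apart from its group. That test therefore does not show how the fit behaves with such a library. Counting errors cover counting only, since PCR reads are not independent molecules.

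The members and lists were chosen with earlier results of these data known. All members are named, with, from each other list, the genes that passed and up to 4 with the smallest p. The 10 genes most like Fos were taken among those with a gene symbol and a mean log2 CPM of at least 1, without predicted genes. Positions are GENCODE M21 (GRCm38).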

Additional observations from a re-analysis of the deposited data

How the results depend on the processing

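Under all 13 alternatives 0 of 10 members passed, with adjusted p from 0.0950 to 0.998. The count over all features, 416, was 788 with DESeq2 and 85 to 917 with single libraries left out (85 without saline replicate 1, 917 without saline replicate 3). Fitted signs turned for 5 members: Fos to -0.0202 without saline replicate 1, Npas4 to 0.0527 and Nr4a1 to 0.165 without saline replicate 3, and Junb and Dusp1 under 5 alternatives each. Junb stood at 0.0227 with library totals, 0.0528 with limma on log2(FPKM + 0.1), 0.0463 with limma on log2(FPKM + 1), 0.0143 without saline replicate 2 and 0.0611 without saline replicate 3. Dusp1 stood at 0.0124, 0.0546 and 0.0514 under the same 3 settings, 0.0155 without collagenase replicate 1 and 0.241 without saline replicate 3. The cause was not tested. With single libraries left out the log2 fold change ranged from -0.02 to 0.49 for Fos, -0.86 to -0.26 for Fosb, -0.26 to 0.06 for Junb, -0.70 to -0.16 for Egr1, -1.01 to -0.34 for Arc, -0.56 to 0.05 for Npas4, -0.53 to 0.16 for Nr4a1, -0.39 to -0.29 for Ier2, -0.24 to 0.24 for Dusp1 and 0.05 to 0.17 for Btg2. The wider list had 6 calls with DESeq2, 2 without the filter and 1 to 4 with single libraries left out. The late list had 4 with DESeq2, 1 with the replicate block and 0 to 3 with single libraries left out. The upstream list had 0 with library totals, 0 with limma on either FPKM scale, 0 with the replicate block, 6 with DESeq2 and 0 to 8 with single libraries left out (8 without saline replicate 3). Limma on log2(FPKM + 0.1) moved the median of all features to 0.08, against -0.02. Same-numbered libraries deviated together with correlations of 0.0439, 0.107 and 0.203. Collagenase replicates 2 and 3 matched best the saline library of their own number, and collagenase replicate 1 matched best saline replicate 2. The labels do not say that the numbers pair libraries, so the main fit left them unpaired. The replicate block gave 302 calls, 0 of them members. Depth limited Fosb most, with 63 counts in its lowest library.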
